A study of Mus musculus with 6 samples.

Results

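Transcript levels of 8 sterol-regulated genes, *Hmgcs1*, *Idi1*, *Fdft1*, *Sqle*, *Lss*, *Cyp51*, *Insig1* and *Srebf2*, were examined in mouse heart. The genes were chosen by name for their place in the control of cellular cholesterol, and all 8 were found among the 24346 genes listed in each library and were among the 12923 with enough signal to be tested. Hearts came from C57BL/6J male mice in 3 groups with 2 libraries each, and no genetic change was made in any group. Chow defined the C group. Mice of the N group received a NASH diet rich in fat, cholesterol and sucrose with added bile acid, and those of the NP group received this diet with pemafibrate, a selective modulator of the nuclear receptor PPARα, at 0.1 mg/kg. The feeding time is given as 8 weeks in the methods and as 3 weeks in the sample labels. Nothing in the labels says whether the 2 libraries of a group came from separate animals, so that *P* values measure only the spread between these libraries.

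Cells make cholesterol from acetyl-CoA through the mevalonate pathway, and the transcription factor SREBP-2 drives the genes of the pathway when sterols in the endoplasmic reticulum are low. When sterols are plentiful, Insig proteins hold the SREBP precursor and its escort Scap in the endoplasmic reticulum, and transcription of these genes falls. In liver, dietary cholesterol is the textbook signal that lowers them. Cardiomyocytes can both make cholesterol and take it up from lipoproteins. The genes studied here cover the enzymes, the sensor Insig1 and the regulator SREBP-2. In bulk tissue, fewer cells of a type and less RNA per cell cannot be told apart.

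SREBP proteins bind near the start of genes of this kind, and for this reason the 250 bases before the transcription start are shown for *Hmgcs1* and *Insig1*, from RefSeq on GRCm38.p6, which is the mm10 build. Capitals mark 4 motifs searched on both strands: the sterol regulatory element core TCACNCCAC, the E-box CACGTG that SREBP proteins can also bind, the CCAAT box bound by NF-Y, and the GC box GGGCGG bound by Sp1, with the last pair also being known partners of SREBP. No motif overlapped another in these windows.
*Hmgcs1*, chr13:119690101-119690350, plus strand: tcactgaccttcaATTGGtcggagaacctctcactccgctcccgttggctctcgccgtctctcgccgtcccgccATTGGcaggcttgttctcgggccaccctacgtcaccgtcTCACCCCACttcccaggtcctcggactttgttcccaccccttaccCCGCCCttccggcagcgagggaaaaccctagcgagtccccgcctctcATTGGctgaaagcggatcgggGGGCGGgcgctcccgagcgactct
*Insig1*, chr5:28071162-28071411, plus strand: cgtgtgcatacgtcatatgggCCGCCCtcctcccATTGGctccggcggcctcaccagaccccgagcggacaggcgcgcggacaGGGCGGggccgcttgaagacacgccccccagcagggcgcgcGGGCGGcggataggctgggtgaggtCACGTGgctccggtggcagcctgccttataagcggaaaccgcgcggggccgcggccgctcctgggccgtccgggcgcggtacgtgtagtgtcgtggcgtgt
In *Hmgcs1* the sterol regulatory element core began 137 bases before the start, with 3 CCAAT boxes and 2 GC boxes around it. *Insig1* held the E-box, which began 101 bases before the start, together with 1 CCAAT box and 3 GC boxes.

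Promoters of 6 of the 8 genes were matched, those of *Hmgcs1*, *Idi1*, *Lss*, *Cyp51*, *Insig1* and *Srebf2*. In windows of 300 bases that also take in the 50 bases after the start, all 6 held a CCAAT box, which 37.4% of the 32851 mouse promoters in the table hold, and all 6 held a GC box, which 35.7% hold. The sterol regulatory element core was found in 1 of the 6, *Hmgcs1*, against 1.24% of all promoters, and the E-box in 1 of the 6, *Insig1*, against 7.15%. These are matches of letters in a short window and not measured binding sites.

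The libraries differed in their make-up beyond diet, and these values are given because their part in each comparison with the C group was not tested. Values are FPKM, a level per length of transcript and per number of mapped fragments, so that they can be set side by side between genes. Cardiomyocyte markers were high throughout (*Myh6*, 3841 to 6856 FPKM). The 8 summed to 67640 and 72130 FPKM in C, 49840 and 53740 in N, and 52620 and 62010 in NP. All 8 had N versus C differences below 0, as had 7127 of the 12923 genes tested, with a median of -0.30 on the log2 scale. These ran from -0.83 for *Myl2* to -2.1e-05 for *Actc1*, and 0 of the 8 passed the threshold. The 4 atrial markers summed to 307 and 172 FPKM in the C libraries against 3647 to 6124 in the N and NP libraries (*Myl7*, 1.51 and 6.70 against 781 to 1319, with *Sln* listed at 0 in the first C library). The C sums were held by *Nppa* (303 and 158 FPKM), and 4 of 4 atrial markers passed the threshold upward for N versus C. Summed hepatocyte markers reached 48.1 and 596 FPKM in the C libraries and 14.0 to 32.3 in the others, with 7 of 8 below both C libraries in the N group. In the N libraries the sums were held by *Cyp2e1* (29.9 and 15.9 FPKM), which was at 2.95 and 33.4 FPKM in C. Macrophage markers summed to 168 and 143 in C, 365 and 271 in N, and 140 and 119 in NP, with 4 of 7 genes past the threshold upward in N against C and 5 of 7 downward in NP against N. Of 7 lymphocyte markers, 3 were tested, and the 7 summed to 0.857 and 0.649 in C, 10.5 and 10.2 in N, and 1.40 and 0.899 in NP. Among adipocyte markers, 6 of 7 were above both C libraries in the N group. The 7 summed to 1343 and 1331 in C, 1195 and 1299 in N, and 1011 and 1144 in NP, sums held by *Fabp4*. *Ucp1* was listed at 0 in the first C and the first NP library. Of all 12923 genes tested, 2904 had both N libraries above both C libraries, and 3483 had both below. The threshold was passed by 1.55% of all genes for N versus C and by 1.39% for NP versus N. The estimated depth was about 26100000 and 21500000 reads in the C libraries and 8160000 to 8710000 in the others. Dissection, depth and diet cannot be told apart in these comparisons.

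**Figure D1:**
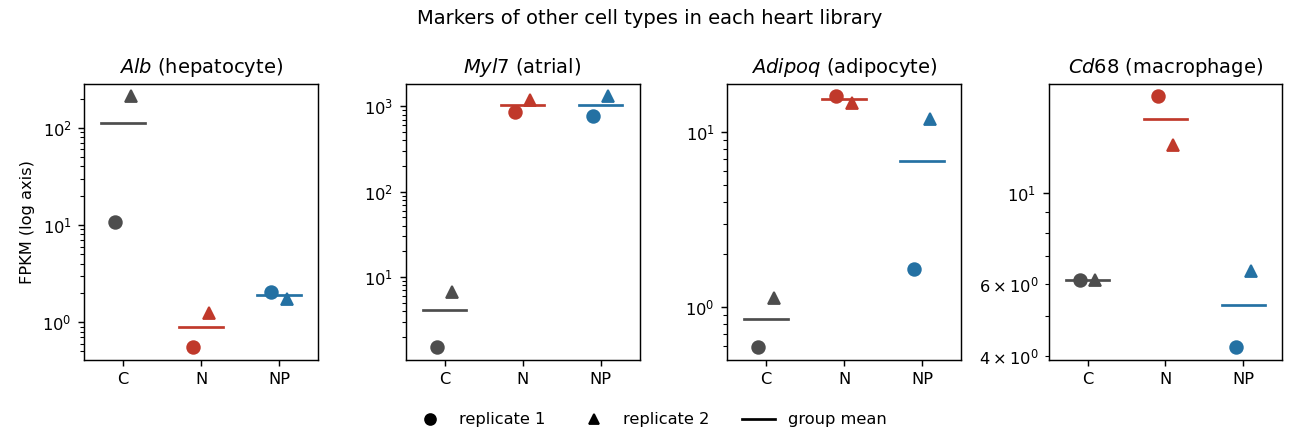
FPKM of 4 marker genes in each library on logarithmic axes, with circles for replicate 1, triangles for replicate 2 and bars for group means. *Alb* is highest in the second C library (211), *Myl7* is at 1.51 and 6.70 in C against 781 to 1319 in the others, *Adipoq* is low in C and in the first NP library, and *Cd68* is highest in the N libraries.

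All 8 genes were detected in every library, and none passed the test of a difference with the NASH diet or with pemafibrate. *Fdft1*, *Hmgcs1* and *Insig1* stood highest, with means over the 6 libraries of 15.1, 14.7 and 13.1 FPKM. Their ranges overlapped, and these 3 genes lay at the 67.2, 66.7 and 63.4 percentiles of level among the genes tested. *Srebf2* followed at 7.57 FPKM, and its lowest library (6.23) was above the highest of *Cyp51* (4.86) and *Idi1* (4.50), which averaged 4.17 and 3.49 FPKM and overlapped each other. *Lss* and *Sqle* were close to the lower limit of the test at 0.540 and 0.539 FPKM and could not be ranked against each other.

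Of the enzymes, *Hmgcs1* (HMG-CoA synthase, on chromosome 13 from 119690351 to 119708260) acts early in the pathway and was the steadiest of the 8. It measured 15.1 and 15.6 FPKM under chow, 14.4 and 14.8 under the NASH diet, and 14.3 and 14.2 with pemafibrate added. The C libraries were above the N libraries and these above the NP libraries, without overlap, but the whole span over the 6 libraries was 0.13 on the log2(FPKM + 1) scale, a span smaller than that of all but 1.04% of the genes tested. Group means were 15.4 ± 0.387, 14.6 ± 0.281 and 14.3 ± 0.0404 FPKM (SD, n = 2). The log2 difference was -0.07 (SE 0.10, 95% interval -0.31 to 0.17, limma adjusted *P* = 0.803) for N versus C, and -0.03 (adjusted *P* = 0.995) for NP versus N. NP versus C gave -0.10 (adjusted *P* = 0.843), and the gene rested on about 381 to 1286 reads per library.

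*Idi1* (chromosome 13, 8885606 to 8892396), which encodes the isomerase that turns isopentenyl diphosphate into its reactive isomer, varied most. It measured 3.81 and 4.50 FPKM under chow, 2.21 and 4.0 under the NASH diet, and 2.59 and 3.83 with pemafibrate added. The low values were the first library of the N group and the first of the NP group, while the second library of each lay within the range of the C libraries. Group means were 4.16 ± 0.491, 3.10 ± 1.26 and 3.21 ± 0.880 FPKM (SD, n = 2), and the N versus C difference of -0.36 (SE 0.26, 95% interval -0.99 to 0.27) had a limma adjusted *P* of 0.573. It was -0.04 without the first N library and -0.68 without the second. The NP versus N difference was 0.06 (adjusted *P* = 0.996), and that for NP versus C was -0.31 (95% interval -0.93 to 0.32, adjusted *P* = 0.809). Its 54 to 281 reads per library give a counting error of 13.6% at the lowest value.

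*Fdft1* (chromosome 14, 63145150 to 63181687) encodes squalene synthase, the step that commits the pathway to sterols. It measured 15.4 FPKM in both chow libraries, 11.8 and 15.5 under the NASH diet, and 15.5 and 17.3 with pemafibrate. The first N library stood alone below the others, and both NP libraries lay above the N libraries, although the nearest pair was the same at the digits shown. Group means were 15.4 ± 0.0152, 13.6 ± 2.60 and 16.4 ± 1.25 FPKM (SD, n = 2). The NP group was 0.26 higher than the N group on the log2 scale (SE 0.15, 95% interval -0.11 to 0.63, limma adjusted *P* = 0.845), and N versus C gave -0.17 (adjusted *P* = 0.648). The NP group and the C group were 0.08 apart (adjusted *P* = 0.927).

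The enzymes that follow, squalene epoxidase (*Sqle*, chromosome 15, 59315092 to 59331193) and lanosterol synthase (*Lss*, chromosome 10, 76531565 to 76557139), close the squalene chain into the first sterol. *Sqle* measured 0.402 and 0.596 FPKM under chow, 0.490 and 0.765 under the NASH diet, and 0.380 and 0.600 with pemafibrate, and in each group the second library was the higher. *Lss* measured 0.592 and 0.561 FPKM under chow, 0.609 and 0.392 under the NASH diet, and 0.591 and 0.498 with pemafibrate, and in each group the second was the lower. Both genes had overlapping groups in every comparison. From the estimated depth, *Sqle* rested on about 8 to 33 reads per library and *Lss* on about 15 to 69, so that counting alone gives a relative error of 35.4% at the lowest value of *Sqle* and 25.8% at that of *Lss*. The N against C differences were 0.12 for *Sqle* (95% interval -0.31 to 0.54, limma adjusted *P* = 0.816) and -0.08 for *Lss* (-0.45 to 0.29, adjusted *P* = 0.865). The NP against N differences were -0.13 for *Sqle* (adjusted *P* = 0.979) and 0.04 for *Lss* (adjusted *P* = 0.995). Against chow, the NP group differed by -0.01 for *Sqle* and by -0.03 for *Lss* (adjusted *P* = 0.995 and 0.979).

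*Cyp51* (chromosome 5, 4080674 to 4104697) encodes the demethylase that acts on lanosterol. It measured 4.86 and 4.18 FPKM under chow, 3.32 and 4.19 under the NASH diet, and 4.45 and 3.99 with pemafibrate added. Only the first N library fell outside the range of the others, which ran from 3.99 to 4.86. Group means were 4.52 ± 0.478, 3.76 ± 0.614 and 4.22 ± 0.331 FPKM (SD, n = 2). The log2 difference was -0.22 for N versus C (SE 0.15, 95% interval -0.58 to 0.14, limma adjusted *P* = 0.547) and 0.14 for NP versus N (adjusted *P* = 0.967). NP versus C gave -0.08 (adjusted *P* = 0.929), on about 108 to 473 reads per library.

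**Figure D2:**
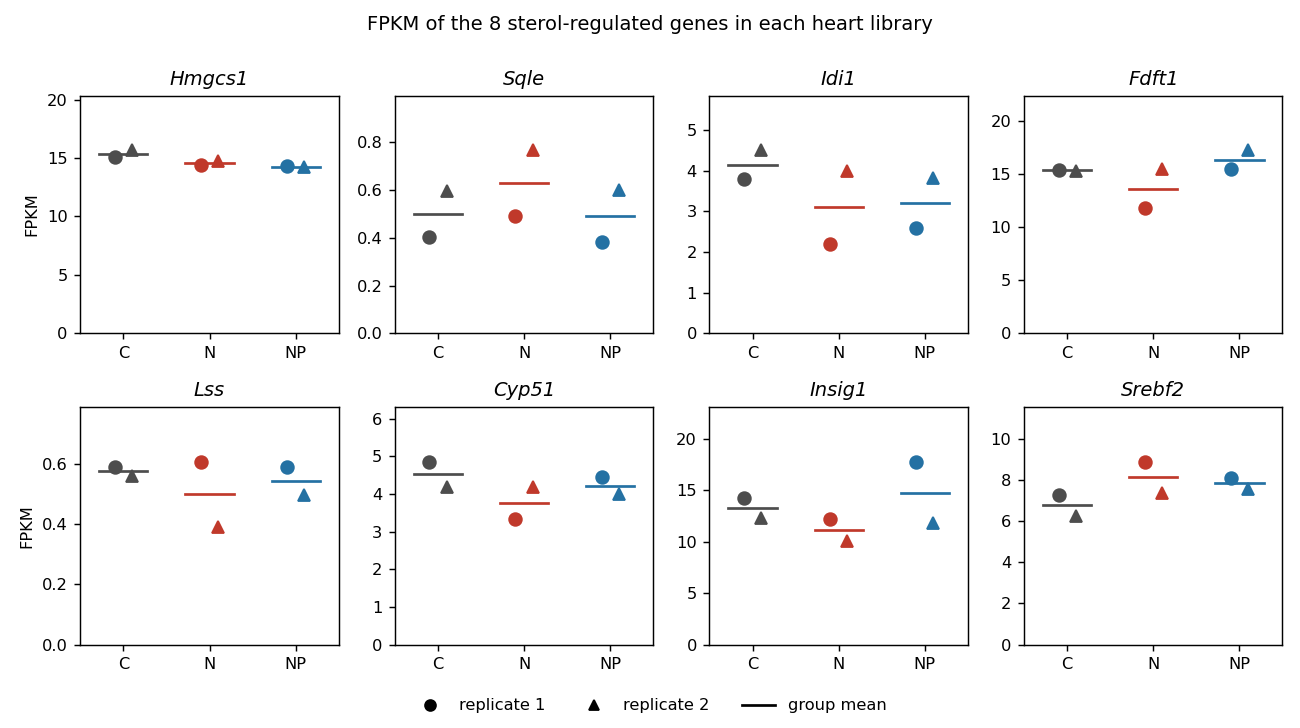
FPKM of each of the 8 genes in each library (vertical axes start at 0 and differ between genes), with circles for replicate 1, triangles for replicate 2 and bars for the mean of the 2 libraries of the C, N and NP groups. *Hmgcs1* is nearly level over the 6 libraries, whereas the first N library is low for *Idi1* (2.21), *Fdft1* (11.8) and *Cyp51* (3.32).

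The sensor *Insig1* (chromosome 5, 28071412 to 28078662), which is itself a target of SREBP and retains the Scap and SREBP complex, measured 14.3 and 12.3 FPKM under chow, 12.2 and 10.1 under the NASH diet, and 17.8 and 11.8 with pemafibrate. The N libraries were below the C libraries, but by a small margin, and the NP libraries lay on both sides of the C libraries. Group means were 13.3 ± 1.39, 11.2 ± 1.53 and 14.8 ± 4.25 FPKM (SD, n = 2). N versus C gave -0.24 on the log2 scale (SE 0.21, 95% interval -0.76 to 0.29, limma adjusted *P* = 0.663). The NP group was 0.35 above the N group (95% interval -0.17 to 0.88, adjusted *P* = 0.855), the largest difference of the 8 genes in that comparison, and 0.12 above the C group (adjusted *P* = 0.927).

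The regulator *Srebf2* (chromosome 15, 82147269 to 82205379), which encodes SREBP-2, had its lowest values under chow. It measured 7.27 and 6.23 FPKM under chow, 8.88 and 7.37 under the NASH diet, and 8.10 and 7.57 with pemafibrate added, so that every library from the NASH diet was above both C libraries. Group means were 6.75 ± 0.736, 8.12 ± 1.07 and 7.84 ± 0.374 FPKM (SD, n = 2). The N versus C difference of 0.23 (SE 0.14, 95% interval -0.10 to 0.57) did not pass the test (limma adjusted *P* = 0.487), nor did the NP versus C difference of 0.19 (adjusted *P* = 0.776). The N and NP groups were closer to each other, at -0.04 for NP versus N (95% interval -0.38 to 0.30, adjusted *P* = 0.995).

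Read as a group, 0 of the 8 genes passed for N versus C, where 1.55% of all genes tested did. Of the 8 differences, 6 were below 0 and 2 above, with a median of -0.12 against -0.03 for all genes tested. No overlap of libraries was seen in 3 of the 8, higher for *Srebf2* and lower for *Hmgcs1* and *Insig1*, and this was so for 49.4% of all genes tested. An unadjusted limma *P* value under 0.05 was reached by 0 of the 8.

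For NP versus N, again 0 of the 8 passed, where 1.39% of all genes did, and 5 differences were above 0 and 3 below. Their median was 0.05 against 0.03 for all genes. No overlap was seen in 2 of the 8, higher for *Fdft1* and lower for *Hmgcs1*, against 29.8% of all genes. For NP versus C, 0 of the 8 passed (0.0387% of all genes), the median was -0.02 against -0.01, and 3 of the 8 did not overlap (42.5% of all genes), which were *Fdft1* and *Srebf2* on the higher side and *Hmgcs1* on the lower. The count with an unadjusted limma *P* value under 0.05 was 0 of 8 in both of these comparisons, and no difference among the 24 reached 1.5-fold on the log2(FPKM + 1) scale. The 3 comparisons share libraries and are not independent of each other. Without the second C library, where hepatocyte transcript was highest, the median of the 8 N versus C differences was -0.13. The first C library also held such transcript (*Alb*, 10.8 FPKM against 0.555 and 1.25 in N). The part of hepatocyte transcript in these differences was thus not tested.

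**Figure D3:**
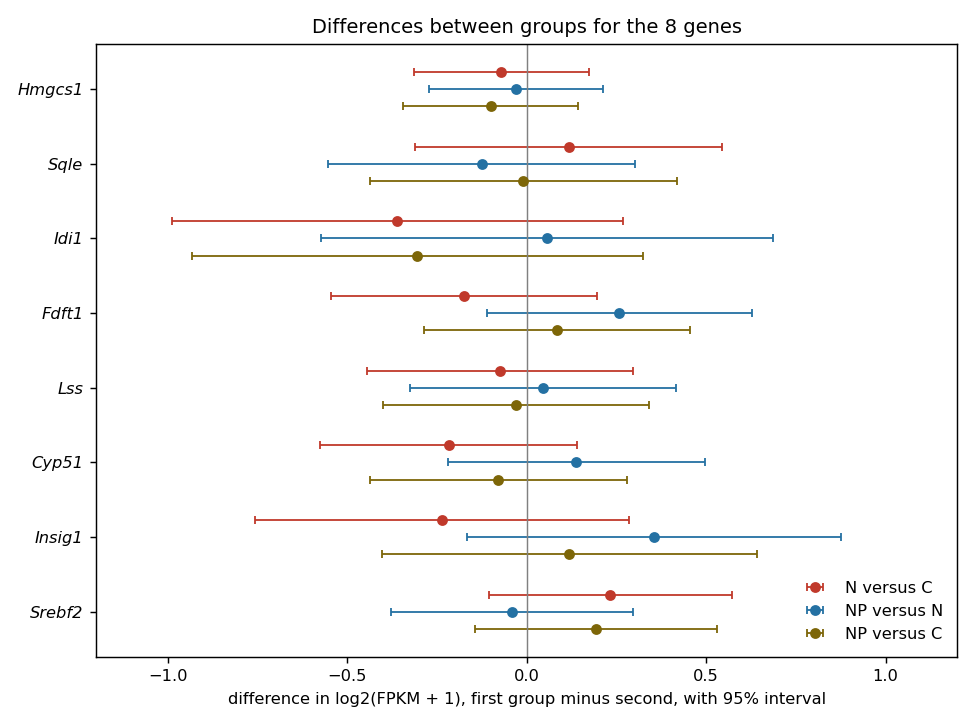
Differences in log2(FPKM + 1) between groups for each gene (horizontal axis, first group minus second), as points with their 95% intervals from limma, for N versus C, NP versus N and NP versus C. Every interval includes 0, with the narrowest for *Hmgcs1* (-0.31 to 0.17 for N versus C) and the widest for *Idi1* (-0.99 to 0.27).

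The intervals show what size of change these libraries could have missed. A halving of the C level would be a log2 difference of -0.91 for *Hmgcs1* and *Fdft1*, -0.90 for *Insig1*, -0.83 for *Srebf2* and -0.76 for *Cyp51*, and the N against C interval lay above this value for each of these 5 genes. It did not for the other 3. For *Idi1* a halving would be -0.74, inside its interval, and for *Sqle* and *Lss* the added pseudocount of 1 shrinks a halving to -0.26 and -0.29, inside theirs too. A doubling lay outside the N against C interval for 7 of the 8 genes, all but *Sqle*. With a pseudocount of 0.1 the N against C interval ran from -0.80 to 1.35 for *Sqle* and from -1.14 to 0.75 for *Lss*. A halving of either gene, or a doubling of *Sqle*, was thus not excluded. For NP versus N, a halving was outside the interval for 6 genes and a doubling for all 8, for *Lss* by less than 0.01. With a pseudocount of 0.1 the *Lss* interval for NP versus N ran from -0.82 to 1.07.

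The spread between the libraries of one group was not the same for all genes, and whether it ran with the replicate number was not tested. The second library was on the same side of the first in all 3 groups for 5 of the 8 genes (62.5%), against 44.9% of all genes tested. It was higher for *Idi1*, by 0.19 under chow, 0.64 under the NASH diet and 0.43 with pemafibrate, and for *Sqle*, and it was lower for *Insig1*, *Srebf2* and *Lss*. For *Insig1* the steps were -0.20, -0.26 and -0.56. The first libraries of the N and NP groups were deposited under names that give the organ and the second under names that give the weeks, and whether this marks a batch is not stated. For NP versus N the *Insig1* difference was 0.50 among the first libraries and 0.20 among the second, that of *Fdft1* was 0.37 and 0.15, and that of *Cyp51* was 0.33 and -0.06.

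The other enzymes of cholesterol synthesis gave 0 of 13 past the threshold in either direction in both the N against C and the NP against N comparison, with medians of -0.01 and -0.06. The largest N against C difference was that of *Tm7sf2*, a sterol reductase, at -0.58 (limma adjusted *P* = 0.341). *Tm7sf2* measured 1.85 and 2.79 FPKM under chow, 1.43 and 0.990 under the NASH diet, and 1.33 and 0.645 with pemafibrate. The second C library also held the most hepatocyte transcript (*Alb*, 211 FPKM), whose part in this difference was not tested. Without that library the difference was -0.37. The largest NP versus N differences were those of *Dhcr7*, the last enzyme of one branch, at 0.27 (adjusted *P* = 0.838), and *Ebp*, a sterol isomerase, at -0.24 (adjusted *P* = 0.831).

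Among 9 genes of sterol sensing and SREBP processing, 0 passed in either comparison. *Srebf1*, which encodes SREBP-1, measured 11.2 and 11.4 FPKM under chow, 19.7 and 11.3 under the NASH diet, and 16.4 and 11.9 with pemafibrate, so that the N against C difference of 0.38 (limma adjusted *P* = 0.580) rested on the first N library. *Erlin1*, a partner of Insig in the endoplasmic reticulum, differed by 0.31 for N versus C (adjusted *P* = 0.580) and by -0.20 for NP versus N (adjusted *P* = 0.968). The protease gene *Mbtps1*, whose product makes the first cut in SREBP, differed by 0.17 for NP versus N (adjusted *P* = 0.945).

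The isoprenoid branch, which takes mevalonate products to ubiquinone and prenylated proteins, also had 0 of 8 genes past the threshold in either comparison. *Coq2*, of ubiquinone synthesis, stood at 69.5 and 77.7 FPKM under chow and 53.2 and 63.1 under the NASH diet, a difference of -0.34 (limma adjusted *P* = 0.318). *Pggt1b*, a subunit of a prenyltransferase, differed by -0.27 (adjusted *P* = 0.484). *Fntb*, the farnesyltransferase beta subunit, differed by 0.34 for NP versus N (adjusted *P* = 0.556) and *Pdss2*, which makes the ubiquinone tail, by 0.25 (adjusted *P* = 0.788).

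For lipoprotein uptake and intracellular cholesterol transport, 0 of 10 genes passed in either comparison. *Mylip*, a ubiquitin ligase that targets lipoprotein receptors and is induced by LXR, measured 11.7 and 13.7 FPKM under chow against 23.7 and 16.1 under the NASH diet and 24.2 and 16.8 with pemafibrate. Both NASH diet groups lay above the C libraries, and the N against C difference was 0.59 (95% interval -0.01 to 1.19, limma adjusted *P* = 0.341). *Vldlr*, a receptor for triglyceride-rich lipoproteins, measured 97.6 and 101 FPKM under chow and 82.6 and 69.3 under the NASH diet, a difference of -0.39 (adjusted *P* = 0.369). *Npc2*, which moves cholesterol out of lysosomes, was at 24.7 and 29.0 FPKM under the NASH diet and 18.4 and 20.5 with pemafibrate, a difference of -0.44 (adjusted *P* = 0.317), while *Lrp1*, a broad endocytic receptor, differed by 0.12 (adjusted *P* = 0.991). Macrophage transcripts moved the same way as *Npc2* (*Cd68*, 17.3 and 13.1 against 4.20 and 6.43 FPKM), and their part in this difference was not tested.

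Fatty acid synthesis and desaturation, the other arm of SREBP control, was the one list with a gene past the threshold. Of 11 genes tested, 1 rose and 0 fell for N versus C, with a median difference of 0.52, and 0 changed for NP versus N, with a median of -0.15. The gene was *Scd2*, a desaturase, at 4.08 and 4.28 FPKM under chow, 12.2 and 11.4 under the NASH diet, and 12.1 and 15.2 with pemafibrate. Its N against C difference was 1.31 (SE 0.14, limma adjusted *P* = 0.0116), and its NP against C difference of 1.49 was just outside the threshold (adjusted *P* = 0.0578). The N against C call was lost when any single C or N library was left out, with adjusted *P* values of 0.0933 and 0.137 without the first or second C library and 0.0708 and 0.0644 without the first or second N library.

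*Scd1* and *Fasn* showed the widest spread of this list. *Scd1*, the main desaturase of lipogenic tissue, measured 4.36 and 8.19 FPKM under chow, 135 and 38.4 under the NASH diet, and 10.4 and 39.5 with pemafibrate, and its N against C difference of 3.38 had an adjusted *P* of 0.131 in limma. *Fasn*, fatty acid synthase, measured 3.62 and 3.32, then 22.6 and 7.56, then 4.92 and 7.87 FPKM in the same order, with a difference of 1.67 (adjusted *P* = 0.194). The NP versus N differences were -1.77 for *Scd1* (adjusted *P* = 0.703) and -0.97 for *Fasn* (adjusted *P* = 0.758). With single libraries left out they ran from -2.69 to -0.85 for *Scd1* and from -1.70 to -0.24 for *Fasn*. Both genes were lowest in the C libraries and, within the NASH diet, lowest in the first NP library. The adipocyte gene *Adipoq* had this order too (0.593 and 1.12 FPKM in C, 16.0 and 14.6 in N, 1.66 and 11.9 in NP). Among the other adipocyte markers, *Plin1*, *Retn* and *Cfd* also had it, and *Fabp4*, *Cidec* and *Ucp1* did not. The part of fat tissue in these differences was not tested.

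**Figure D4:**
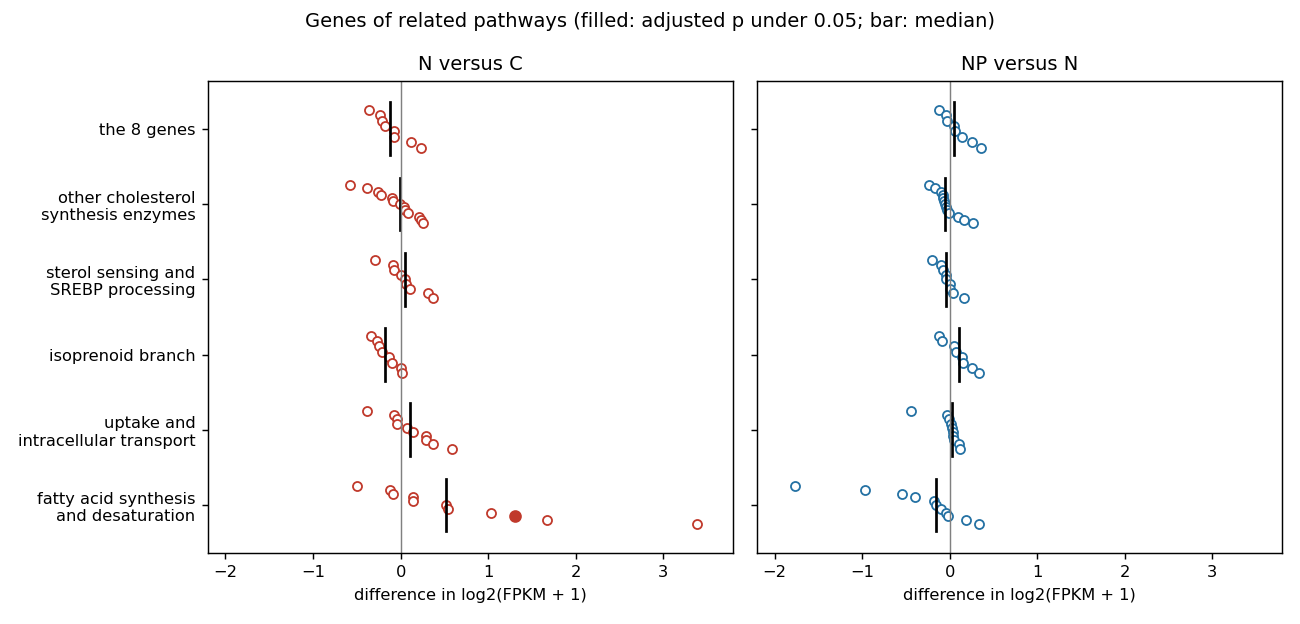
Differences in log2(FPKM + 1) of single genes (horizontal axis) for the 8 genes and 5 related lists, N versus C on the left and NP versus N on the right, with filled points for genes past the adjusted threshold of 0.05 and bars for list medians. The 8 genes lie between -0.36 and 0.23 on the left, and *Scd2* (1.31) in the fatty acid list is the single filled point.

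Taking the 8 genes as one profile, each library's mean log2 value relative to the C group was 0.01 and -0.01 under chow, -0.15 and -0.05 under the NASH diet, and -0.01 and -0.02 with pemafibrate. The first N library was the lowest. Outside the lists, the genes with the nearest profile over the 6 libraries were *Aatf*, *Cd3eap* and *Clcn4-2*, with root mean square differences of 0.022, 0.023 and 0.024 on the log2 scale. Of the 8084 candidates with a mean of at least 5 FPKM, 977 lay within 0.1, so that a nearly flat profile of this kind was common.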

How the data were processed

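Heart RNA of the C, N and NP groups was analysed as 6 libraries, 2 in each group, grouped by the sample titles. Reads were mapped by the authors to mm10 with TopHat2 2.0.13, Bowtie2 2.2.3 and SAMtools 0.1.19, and the deposited values are FPKM from Cufflinks 2.2.1 (versions from the submitters' processing notes). The labels give the heart as tissue, although their extraction text speaks of liver. Read counts were not used here.

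FPKM were taken as log2(FPKM + 1), and genes with a mean of at least 0.5 FPKM were tested with limma 3.58.1 in R 4.3.3, in one model of 3 groups with a mean-dependent prior (3 residual degrees of freedom). *P* values were adjusted by Benjamini-Hochberg over all 12923 genes, with a threshold of 0.05. An exact two-sided permutation test of 2 against 2 libraries cannot go under 0.3333. On simulated data for N versus C with 12923 genes, limma recovered 56% of genes with a log2 change of 1 and 88% with one of 2, and 8 others were called.

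Depth was estimated from the steps between low FPKM values of 4107 genes with 1 transcript. Of values up to 5 reads, 75.0% to 79.4% per library lay within 0.1 of a whole read, and reads per gene were derived from the length of the main transcript in GENCODE M21 less 200 bases. Positions and promoters are from RefSeq on GRCm38.p6. Python 3.11.15, numpy 2.4.6, pandas 2.3.3 and matplotlib 3.10.9 were used.

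The members and lists were chosen with earlier results of these data known. The genes named are the 8 members and, from each list, those past the threshold, the 2 with the largest difference between N and C, the 2 with the largest between NP and N, and the 3 nearest profiles. *Elovl6* was below the filter. Not every gene that this rule gives, or of the pathway, is reported here. As alternatives, pseudocounts, filters, scalings and designs were varied and single libraries were removed.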

Additional observations from a re-analysis of the deposited data

How the results depend on the processing

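Over 402 settings of the 24 results for single genes (8 genes in 3 comparisons), 0 passed the threshold and 21 had the other sign. The lowest limma adjusted *P* was 0.0527, for *Idi1* between N and C with a replicate block restricted to N and NP. The counts of called members were 0 of 8 in the main fit. They stayed at 0 in every other setting run, the replicate block for all 3 groups included.

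The median of the 8 differences between N and C was -0.19 with a pseudocount of 0.1, -0.20 with a mean of at least 1 FPKM (which drops *Sqle* and *Lss*), -0.01 after scaling to the same total (-0.0116) and -0.06 (-0.0555) with the replicate block for N and NP alone, and -0.13 to -0.05 (-0.132 to -0.0471) when single libraries were left out. Between NP and N it was 0.101 with a pseudocount of 0.1, 0.0969 with a mean of at least 1 FPKM, 0.103 after quantile normalization, and 0.0371 to 0.111 with single libraries left out. Between NP and C it was 0.0469 after scaling to the same total, -0.0765 with the block for N and NP alone, and -0.0822 to -0.00212 with single libraries left out. Scaling to the same total moved the median of all genes tested from -0.03 to 0.12 between N and C.

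Signs turned for small differences. After scaling to the same total, *Hmgcs1* was at 0.0938 between N and C, and between NP and C *Hmgcs1* was at 0.0457, *Sqle* at 0.0394, *Lss* at 0.0265 and *Cyp51* at 0.0481. Quantile normalization gave *Sqle* 0.00696 between NP and C. With the block for N and NP alone, *Fdft1* was at -0.0442 and *Lss* at 0.0433 between NP and C.

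With single libraries left out, the N against C difference ranged from -0.357 to 0.00808 for *Fdft1*, -0.00610 to 0.239 for *Sqle* and -0.179 to 0.0289 for *Lss*. Between NP and N it ranged from -0.264 to 0.375 for *Idi1*, -0.161 to 0.0786 for *Srebf2*, -0.0595 to 0.149 for *Lss*, -0.154 to 0.396 for *Lrp1* and -0.472 to 0.0618 for *Erlin1*. Between NP and C it ranged from -0.168 to 0.00915 for *Cyp51*, -0.116 to 0.0967 for *Sqle*, -0.159 to 0.397 for *Insig1* and -0.0742 to 0.0130 for *Lss*. The cause of these turns was not tested.

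The replicate numbers are shared by the groups, but nothing states that they pair libraries. The correlation of same-numbered deviations over 12923 genes was 0.0471 for C and N, 0.124 for C and NP and 0.458 for N and NP. With the block for N and NP alone, *Mylip* (limma adjusted *P* = 0.0190) and *Srebf1* (adjusted *P* = 0.0326) passed between N and C. Calls over all genes between N and C were 191 higher and 9 lower, against 274 and 54 with the block for all groups, 506 and 564 with the block for N and NP alone, 300 and 9 after scaling to the same total, and 41 and 8 without the second C library. Between NP and N they were 0 and 179, against 12 and 289 with the block for N and NP alone, 0 and 78 from the groups compared alone, and 2 and 65 without the second NP library. Between NP and C they were 5 and 0, against 34 and 69 with the block for N and NP alone, 19 and 1 with the block for all groups, and 10 and 91 without the first C library. *Sqle* and *Lss* rested on about 8 to 69 reads per library. A halving of either gene, and a doubling of *Sqle*, lay inside their intervals between N and C, and the part of depth in this was not tested.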
